A study of Mus musculus with 4 samples.

Results

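Transcripts of 7 MAP kinase phosphatases and 2 mRNA-decay factors of the ZFP36 family were examined in mouse dendritic cells (DCs) with and without liver X receptors (LXRs), before and after exposure to bacterial lipopolysaccharide (LPS). The 9 genes, Dusp1, Dusp2, Dusp4, Dusp5, Dusp6, Dusp10, Dusp16, Zfp36 and Zfp36l1, were taken from the 18193 genes with a probe set of their own. All probe sets annotated to exactly 1 of these symbols were used, which gave 12 of the 45037 probe sets that were not manufacturer's controls. Dusp10, Dusp16 and Zfp36l1 had 2 probe sets each and the other 6 genes had 1 each. The rule uses names and no measured value, but the members were chosen with earlier results of these data known.

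The 4 groups had 1 array each. LXR-DKO LPS and LXR-DKO control cells came from mice lacking both LXRalpha and LXRbeta, and WT LPS and WT control cells from wild-type mice, all labelled C57/BL6. All were bone marrow cells grown for 6 to 7 days with the growth factor GM-CSF at 20 ng/mL and enriched on beads for the DC integrin CD11c. They were then kept for 24 h with GM-CSF at 10 ng/mL, the control, or with GM-CSF and LPS at 100 ng/mL. The number of mice behind each culture, their sex and their age were not stated, so the labels do not tell whether a culture was 1 animal or a pool. Because each group is a single array, differences could not be checked against replicates, and neither tests nor p-values are given.

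MAP kinases (ERK, JNK and p38) carry the Toll-like receptor 4 signal that LPS starts, and they are switched off when dual-specificity phosphatases remove the phosphates from both the threonine and the tyrosine of their activation loop. Several of these phosphatases are themselves induced by the kinases they inactivate, which makes them negative feedback regulators. ZFP36, also called tristetraprolin, and its relative ZFP36L1 bind AU-rich elements in cytokine mRNAs such as that of Tnf and recruit the CCR4-NOT deadenylase, and the p38 effector kinase MK2 restrains ZFP36 by phosphorylating it. In myeloid cells both arms are known for limiting the size and duration of inflammatory cytokine production.

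Of the promoters, 4 are printed below, those with a full cyclic AMP response element, a CArG box or a match to the AP-1 pattern TGANTCA. They show how the members differ in letter patterns for factors downstream of MAP kinases and cyclic AMP. RefSeq promoter windows of the mouse build GRCm38.p6, from 250 bases before to 50 bases after the annotated start, were found for 8 of the 9 genes, Dusp4 being the exception. The Dusp16 window, at chr6:134792579-134792878 on the minus strand, lies at a start inside the gene, whose upstream end is at 134807063. The Dusp1 window lies at chr17:26508423-26508722 on the minus strand, that of Dusp5 at chr19:53528895-53529194 on the plus strand, that of Zfp36 at chr7:28379179-28379478 on the minus strand and that of Zfp36l1 at chr12:80112964-80113263 on the minus strand. Each is written 5′ to 3′ along the gene. Capitals mark cyclic AMP response elements, CArG boxes and matches to the AP-1 pattern, a match on the other strand being written as its complement.
Dusp1: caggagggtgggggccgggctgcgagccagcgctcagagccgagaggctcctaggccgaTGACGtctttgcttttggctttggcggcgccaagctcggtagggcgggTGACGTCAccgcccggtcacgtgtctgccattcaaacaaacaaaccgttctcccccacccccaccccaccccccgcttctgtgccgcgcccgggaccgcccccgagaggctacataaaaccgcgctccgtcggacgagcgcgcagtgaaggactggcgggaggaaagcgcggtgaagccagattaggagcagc
Dusp5: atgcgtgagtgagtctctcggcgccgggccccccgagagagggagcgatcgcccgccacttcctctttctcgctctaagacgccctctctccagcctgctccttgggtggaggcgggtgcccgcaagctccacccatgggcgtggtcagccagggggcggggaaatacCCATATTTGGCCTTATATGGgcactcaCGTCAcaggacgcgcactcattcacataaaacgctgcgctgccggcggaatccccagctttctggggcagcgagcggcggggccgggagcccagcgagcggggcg
Zfp36: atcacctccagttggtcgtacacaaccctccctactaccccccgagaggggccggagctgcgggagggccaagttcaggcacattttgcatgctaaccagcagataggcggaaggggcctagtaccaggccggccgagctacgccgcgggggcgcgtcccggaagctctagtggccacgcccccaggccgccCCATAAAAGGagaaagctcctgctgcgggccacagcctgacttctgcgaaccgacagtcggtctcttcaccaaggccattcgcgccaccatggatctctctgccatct
Zfp36l1: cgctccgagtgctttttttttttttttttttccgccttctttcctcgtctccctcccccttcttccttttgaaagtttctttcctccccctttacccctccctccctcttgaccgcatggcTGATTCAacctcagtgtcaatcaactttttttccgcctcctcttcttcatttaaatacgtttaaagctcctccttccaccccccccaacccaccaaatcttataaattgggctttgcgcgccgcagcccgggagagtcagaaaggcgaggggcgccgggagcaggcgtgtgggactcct

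Of 7 motifs searched on both strands, the full cyclic AMP response element TGACGTCA was found in Dusp1 alone of the 8 windows, starting 143 bases before the gene start. The same element was in 1.80% of 32544 distinct mouse promoter windows of this length. The shorter form of it, TGACG, was found in Dusp1, Dusp2, Dusp5 and Dusp16, against 20.9% of all windows, and in Dusp1 it overlapped the full one on both strands and also stood at 191 bases before the start. The CArG box, which binds serum response factor and is CC, 6 bases of A or T and GG, was found in Dusp5 and Zfp36, against 1.64% of all windows. In Dusp5 a pair of them stood end to end, starting 82 and 72 bases before the gene start, and in Zfp36 a single one started 58 bases before it. The AP-1 pattern TGANTCA, in which N is any base, was found in Zfp36l1 alone, 129 bases before the start, against 7.79% of all windows. That match reads TGATTCA, while the usual AP-1 site has C or G at the middle base, so it is only a loose match. The NF-kappaB site, which was in 4.53% of windows, was in 0 of the 8. The nuclear receptor core site AGGTCA was found in Dusp16 alone, whose window lies at a start inside the gene, against 16.2%. The direct repeat of that core site with 4 bases between, the arrangement LXRs bind, was in 0 of the 8 and in 0.0154% of all windows. These are matches of letters and not measured binding sites.

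**Figure D1:**
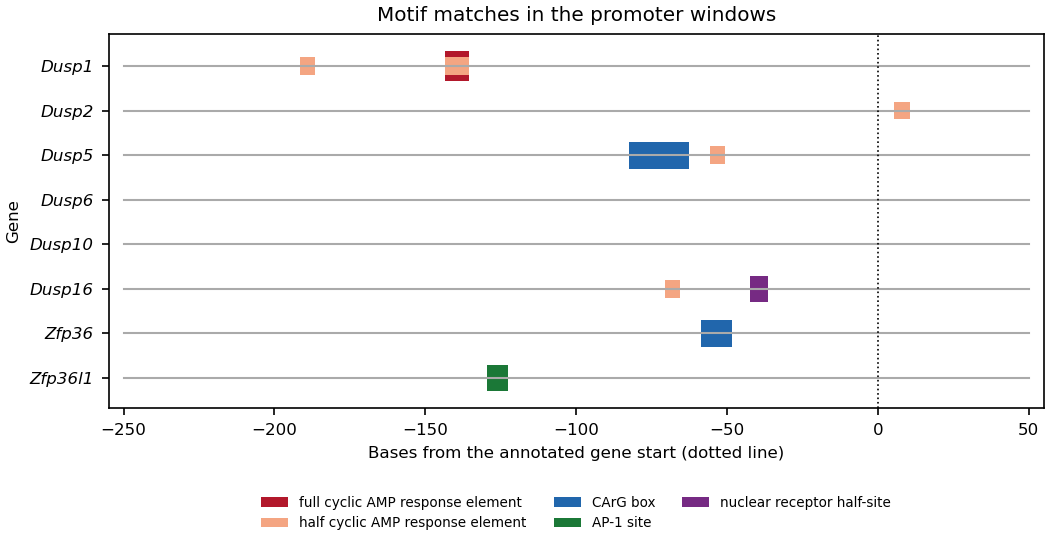
Position of each motif match in the promoter windows of 8 genes; the x axis gives bases from the annotated gene start (dotted line), each grey line is 1 window and coloured blocks are matches. Dusp1 holds the full cyclic AMP response element, Dusp5 holds a pair of adjoining CArG boxes, Zfp36 holds 1, and Dusp6 and Dusp10 hold no match. For Dusp16 the start shown is one inside the gene, and the AP-1 block is a loose match to TGANTCA.

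Signals are the authors' MAS5 intensity values on a linear scale, which share the same trimmed mean on every array as deposited. Signals below 28.9, the median over all arrays, were raised to that floor, and a ratio that involves one is marked by "at least" because the true difference may be larger. Each gene was represented by its brightest probe set on average, and 8 of the 9 genes reached the floor on every array. Among genes with several probe sets, log2 ratios from different probe sets of 1 gene had an SD of 0.42 for the LPS response in LXR-DKO and 0.29 in WT. For LXR-DKO against WT it was 0.46 without LPS and 0.54 with LPS. This spread lies within the arrays and does not cover differences between cultures or mice.

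The arrays as a whole carried other differences between the genotypes. The targeted gene Nr1h3, which encodes LXRalpha, had signals of 27.0 in LXR-DKO LPS, 40.4 in LXR-DKO control, 54.5 in WT LPS and 108.6 in WT control cells, and whether its probe set lies in the deleted part was not known. The DC integrin gene Itgax, which encodes CD11c, was at 3848.1 and 4404.5 in LXR-DKO LPS and control cells and at 6093.0 and 5012.2 in WT LPS and control cells. Zbtb46, a transcription factor gene that defines conventional DCs, was at 393.3 and 305.9 in LXR-DKO and at 29.0 and 39.4 in WT. Of 7 DC markers, 7 and 6 reached the floor in LXR-DKO LPS and control cells and 4 and 5 in WT LPS and control cells. The summed signal of 7 neutrophil markers was 16643.6 and 17455.1 in LXR-DKO LPS and control cells, against 1964.5 and 1858.2 in WT. That of 5 mast cell, basophil and eosinophil markers was 1914.3 and 1246.2 in LXR-DKO, against 197.9 and 403.5 in WT. Among these, Kit went the other way without LPS, at 49.3 in LXR-DKO control against 92.3 in WT control cells. Fcer1a was close without LPS, at 36.3 against 33.5. The summed signal of 7 macrophage markers was 23755.9 and 32937.7 in LXR-DKO, against 25858.9 and 19640.1 in WT. That sum hides opposite differences: C1qb was at 4087.0 and 6280.6 in LXR-DKO, against 1.8 and 108.4 in WT, while Cd68 was at 2139.2 and 2836.3 in LXR-DKO, against 8902.7 and 7043.9 in WT. C1qa lay below the floor on both WT arrays, and C1qb and C1qc on the WT LPS array. The summed signal of 4 B cell markers was 1707.1 and 491.5 in LXR-DKO, against 71.6 and 88.4 in WT, where Cd79a, Cd79b and Ms4a1 lay below the floor. Of 4 T and NK cell markers, 2 reached the floor in LXR-DKO LPS cells and 0 in each other group. Xist, transcribed from the inactive X chromosome of females, was at 2090.4 and 2750.0 in LXR-DKO and at 22.7 and 30.8 in WT, while the Y-linked gene Uty was at 128.6 and 69.7 in LXR-DKO and at 291.1 and 300.9 in WT. The Y-linked genes Eif2s3y and Kdm5d also reached the floor on both LXR-DKO arrays, at 384.3 and 279.6 and at 93.2 and 56.1. Female and male transcripts were thus found together in the LXR-DKO cultures. Their log2 LPS ratios there were -0.40 for Xist and 0.46, 0.73 and 0.88 for Eif2s3y, Kdm5d and Uty. A mix of animals was not tested. Some markers also stood apart between the LXR-DKO LPS and control arrays. Of the B cell markers, Cd79a, Cd79b and Ms4a1 had log2 LPS ratios of 1.8, 1.8 and 2.0 there, while Pax5 was at -0.4. The mast cell and basophil markers Cpa3, Mcpt8, Kit and Fcer1a were at 1.4, 1.1, 1.9 and 2.2, while the eosinophil marker Siglecf was at -0.7. The part of cell makeup and of sex in the differences given below was not tested. Fewer cells of a type and less RNA per cell cannot be told apart in such bulk samples.

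**Figure D2:**
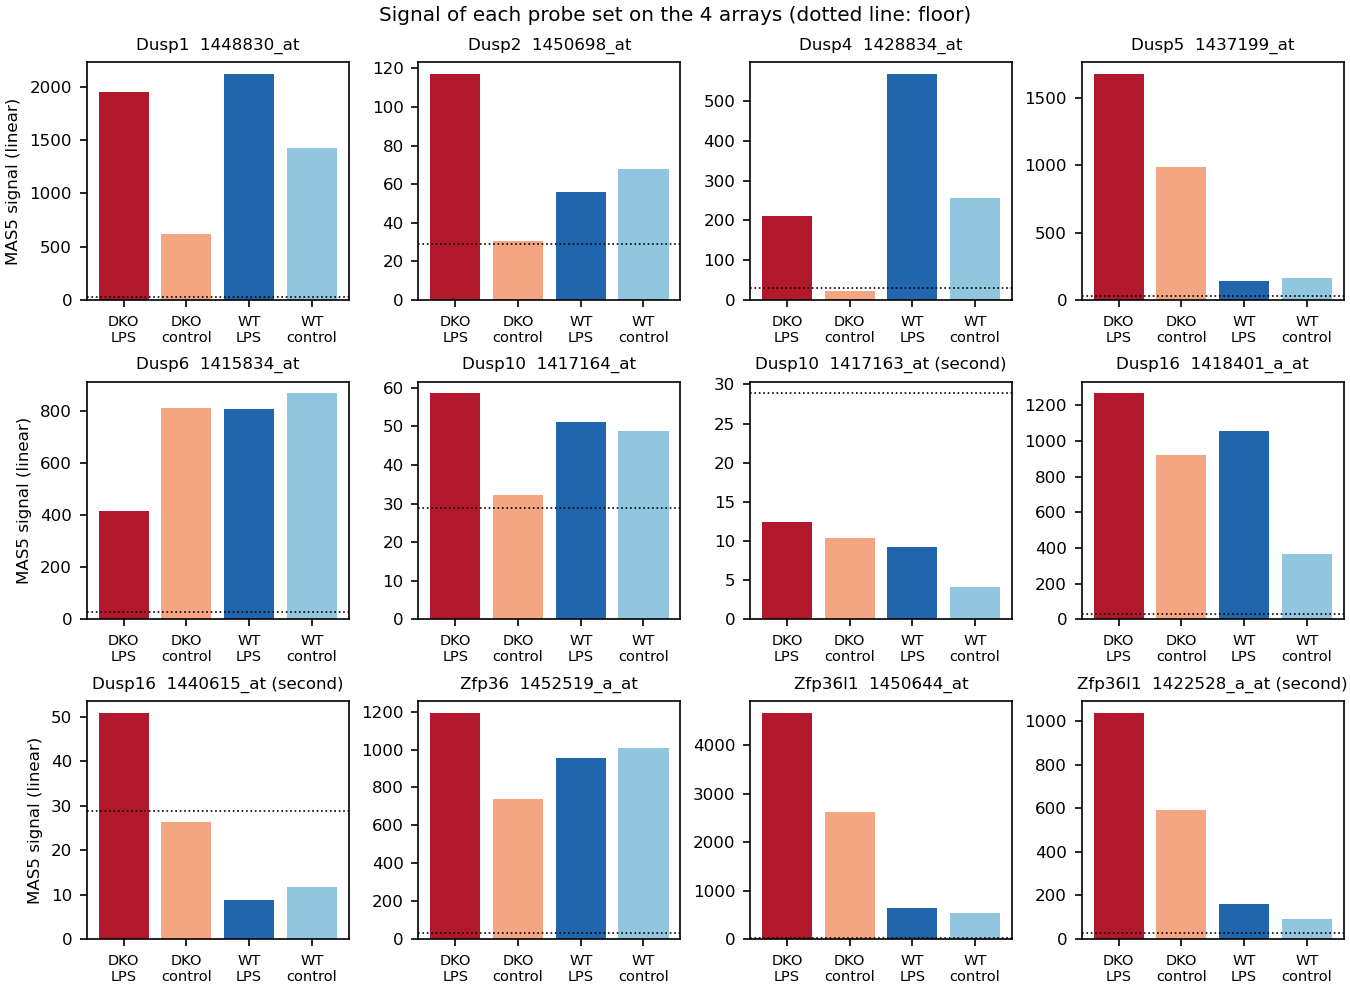
MAS5 signal (y axis, linear, starting at 0, with its own scale in each panel) of each of the 12 probe sets on the 4 arrays, 1 bar per array; the dotted line is the floor of 28.9 and "second" marks the dimmer probe set of a gene. Dusp5 and both probe sets of Zfp36l1 are higher on both LXR-DKO arrays than on both WT arrays, and Dusp4 is lower.

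The inducible nuclear phosphatases were considered first. Dusp1 encodes MKP-1, an immediate early gene product that acts mainly on p38 and JNK. Its signal (probe set 1448830_at) was 1949.9 in LXR-DKO LPS, 615.2 in LXR-DKO control, 2122.9 in WT LPS and 1428.9 in WT control cells. Both LPS arrays were above both control arrays, and the LXR-DKO control array was the lowest of the 4. Dusp1 was 3.17-fold higher with LPS in LXR-DKO, a log2 ratio of 1.66 that 2.62% of genes equalled or passed. In WT it was 1.49-fold higher, a log2 ratio of 0.57. Without LPS it was 2.32-fold lower in LXR-DKO than in WT, and with LPS the log2 ratio was -0.12, which was smaller than the spread between probe sets and above 0 after quantile normalization.

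Dusp2 encodes PAC-1, a nuclear phosphatase of leukocytes that acts on ERK and p38. It had low signals (probe set 1450698_at) of 117.3 in LXR-DKO LPS, 30.6 in LXR-DKO control, 55.7 in WT LPS and 68.1 in WT control cells. The LXR-DKO LPS array was the highest, the LXR-DKO control array the lowest and just above the floor, and both WT arrays lay between them. Dusp2 was therefore 3.83-fold higher with LPS in LXR-DKO, against a log2 ratio of -0.29 in WT that was no larger than the spread between probe sets. On the log2 scale its ratio of LXR-DKO to WT was -1.15 without LPS and 1.07 with LPS, so the order of the genotypes was the opposite in the presence of LPS. The ratio with LPS was under 2-fold after each of the 3 other scalings, at 0.70 to 0.94. With 16 added to each signal in place of the floor, the log2 LPS ratio in LXR-DKO was 1.52. The genotype ratios were then under 2-fold, at -0.85 without LPS and 0.89 with LPS.

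Dusp4 encodes MKP-2, a nuclear phosphatase of ERK and JNK. Its signal (probe set 1428834_at) was 210.5 in LXR-DKO LPS, 22.3 in LXR-DKO control, 568.8 in WT LPS and 256.4 in WT control cells. Both LXR-DKO arrays were below both WT arrays, and only the LXR-DKO control array was below the floor. Dusp4 was at least 8.87-fold lower in LXR-DKO than in WT without LPS and 2.70-fold lower with LPS. The LPS ratio was at least 7.28-fold in LXR-DKO and 2.22-fold in WT, both upwards, and Dusp4 was the one member past 2-fold with LPS in both genotypes. With a higher floor of 177.4, under which its LXR-DKO control signal also falls, these are weaker limits, a log2 LPS ratio of at least 0.25 in LXR-DKO and a ratio of LXR-DKO to WT without LPS of -0.53 or lower. Without any floor they were 3.24 and -3.52.

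Dusp5 encodes a nuclear phosphatase specific for ERK, and its window is the one above with a pair of CArG boxes. Its signal (probe set 1437199_at) was 1680.1 in LXR-DKO LPS, 983.6 in LXR-DKO control, 140.0 in WT LPS and 165.0 in WT control cells. Both LXR-DKO arrays were far above both WT arrays, in the opposite direction to Dusp4. Dusp5 was 5.96-fold higher in LXR-DKO than in WT without LPS and 12.0-fold higher with LPS, ratios that 1.84% and 1.08% of genes equalled or passed. With LPS its log2 ratio was 0.77 in LXR-DKO and -0.24 in WT, and the WT value was smaller than the spread between probe sets.

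The remaining phosphatases act outside the nucleus or on JNK and p38. Dusp6 encodes MKP-3, a cytoplasmic phosphatase of ERK whose gene is induced by ERK signalling. Its signal (probe set 1415834_at) was 418.0 in LXR-DKO LPS, 814.0 in LXR-DKO control, 807.0 in WT LPS and 869.8 in WT control cells. The LXR-DKO LPS array stood below the other 3, which were close to each other. Dusp6 was 1.95-fold lower with LPS in LXR-DKO and 1.93-fold lower in LXR-DKO than in WT with LPS. A ratio as low in LXR-DKO with LPS was found for 2.19% of genes, and Dusp6 was the only one of the 9 with a negative LPS ratio in LXR-DKO. Its WT ratio of -0.11 was within the spread between probe sets and above 0 after scaling to the 75th percentile.

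Dusp16 encodes MKP-7, a phosphatase with a preference for JNK. The brighter of its probe sets (1418401_a_at) was at 1269.2 in LXR-DKO LPS, 923.6 in LXR-DKO control, 1054.9 in WT LPS and 365.9 in WT control cells. The WT control array was the lowest and the other 3 were closer together. Dusp16 was 1.37-fold higher with LPS in LXR-DKO and 2.88-fold higher in WT, and it was 2.52-fold higher in LXR-DKO than in WT without LPS. With LPS the log2 ratio of LXR-DKO to WT was 0.27, and it was -0.03 after scaling to the 75th percentile. The second probe set was at 51.0 in LXR-DKO LPS and below the floor on the other 3 arrays, so it did not show the WT response.

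Dusp10 encodes MKP-5, which acts on JNK and p38. It had low signals (probe set 1417164_at) of 58.6 in LXR-DKO LPS, 32.2 in LXR-DKO control, 51.1 in WT LPS and 48.8 in WT control cells, and its second probe set was below the floor on all 4 arrays. Its log2 LPS ratio was 0.86 in LXR-DKO and 0.07 in WT, and none of its ratios reached 2-fold. Its ratio of LXR-DKO to WT with LPS, 0.20, was below 0 after scaling to the 75th percentile or quantile normalization.

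The mRNA-decay factors differed from each other. Zfp36 (probe set 1452519_a_at) had signals of 1195.4 in LXR-DKO LPS, 739.5 in LXR-DKO control, 955.4 in WT LPS and 1009.3 in WT control cells. The highest array was 1.62-fold above the lowest, which is the smallest range among the 9 genes. Its log2 LPS ratio was 0.69 in LXR-DKO and -0.08 in WT, and its ratio of LXR-DKO to WT was -0.45 before and 0.32 after LPS. The WT response and both genotype ratios were smaller than the spread between probe sets, and the WT response was above 0 after scaling to the 75th percentile.

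Zfp36l1 had signals of 4674.4 in LXR-DKO LPS, 2612.4 in LXR-DKO control, 633.8 in WT LPS and 543.3 in WT control cells by its brighter probe set (1450644_at). Its second probe set (1422528_a_at) was at 1039.4 in LXR-DKO LPS, 592.8 in LXR-DKO control, 162.2 in WT LPS and 90.0 in WT control cells. Both probe sets were higher on both LXR-DKO arrays than on both WT arrays. Zfp36l1 was 4.81-fold higher in LXR-DKO than in WT without LPS and 7.38-fold higher with LPS by the brighter probe set. The log2 ratios of the brighter probe set were 2.27 and 2.88, and those of the second 2.72 and 2.68. The LPS response in LXR-DKO was 0.84 and 0.81 by the 2 probe sets, and that in WT was 0.22 and 0.85, which differ by more than the spread between probe sets.

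**Figure D3:**
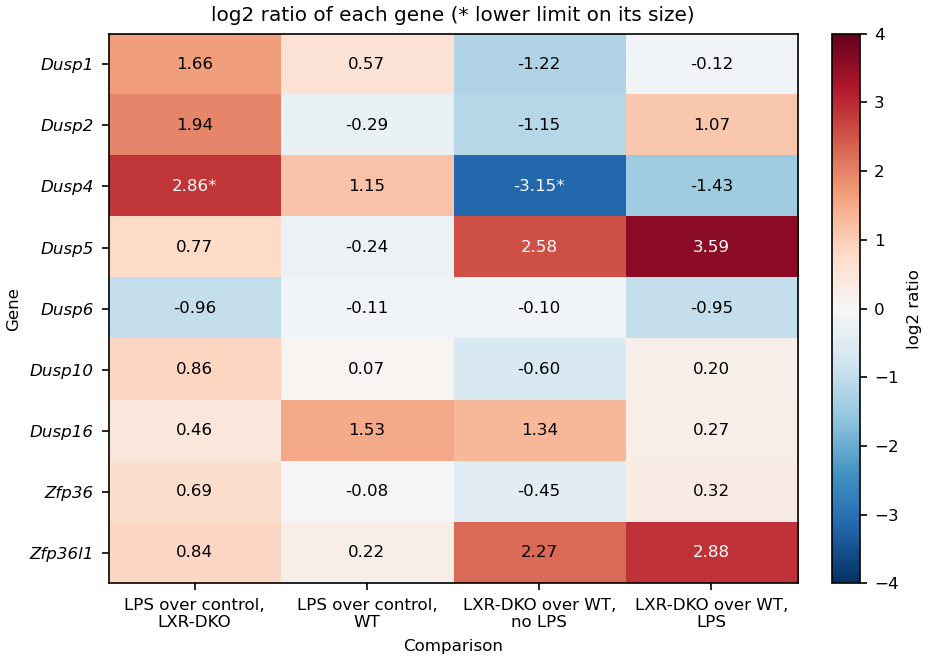
log2 ratio (colour and number) of the 9 genes (rows) in 4 comparisons (columns), with an asterisk where the true size may be larger. Dusp5 and Zfp36l1 are the genes past 2-fold higher in LXR-DKO with and without LPS, and Dusp4 is past 2-fold lower in both.

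Over the 9 genes, the LPS response was mostly positive in LXR-DKO. There Dusp1, Dusp2 and Dusp4, 3 of the 9, passed 2-fold upwards and 0 passed it downwards, against 6.23% and 1.82% of 11793 measured genes, and the median log2 ratio was 0.84 against 0.018 over all genes. In WT, 2 of the 9, Dusp4 and Dusp16, passed 2-fold upwards and 0 downwards, against 2.93% and 4.79% of 11449 genes, with a median of 0.07 against -0.05. Both LPS arrays were above both control arrays for Dusp1, Dusp10 and Dusp16, against 10.2% of the 12478 genes that reached the floor on any array, and below them for Dusp6, against 10.7%. The gap was narrow for Dusp10, at 51.1 in WT LPS against 48.8 in WT control cells. It was also narrow for Dusp6, at 807.0 in WT LPS against 814.0 in LXR-DKO control cells. After scaling to the 75th percentile, 447 of all genes were past 2-fold higher and 439 lower in WT, against 336 and 548 as deposited.

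Between the genotypes the members went both ways. Without LPS, 3 of the 9 (Dusp5, Dusp16 and Zfp36l1) passed 2-fold upwards in LXR-DKO and 3 (Dusp1, Dusp2 and Dusp4) downwards, against 12.7% and 9.28% of 11728 genes, with a median log2 ratio of -0.45 against 0.045 over all genes. With LPS, 3 (Dusp2, Dusp5 and Zfp36l1) were higher and 1 (Dusp4) lower, against 17.8% and 8.76% of 12014 genes, with a median of 0.27 against 0.15. Both LXR-DKO arrays were above both WT arrays for Dusp5 and Zfp36l1, 2 of the 9, against 35.1% of all genes. They were below them for Dusp4 alone, against 26.9%. After scaling to the 75th percentile, 1129 of all genes were past 2-fold higher and 1431 lower without LPS, against 1487 and 1088 as deposited. With LPS the counts were 1541 and 1729 after that scaling, and 1661 and 1341 after quantile normalization, against 2141 and 1053 as deposited.

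The difference of the log2 responses, LXR-DKO minus WT, was at least 1 for 4 of the 9 genes and at most -1 for 1 gene, against 7.69% and 1.99% of 10764 genes. It was 2.23 for Dusp2, at least 1.72 for Dusp4, 1.09 for Dusp1 and 1.01 for Dusp5, and it was -1.07 for Dusp16. For Dusp5 it was 0.90 to 0.93 after the 3 other scalings, and for Dusp1 it was 0.99 after scaling to the 75th percentile. For Dusp2 it was 1.75 with 16 added to each signal in place of the floor. For Dusp4 the floor of 177.4 left only a weaker limit, at least -0.90. The median was 0.80 against 0.088 over all genes. The LXR-DKO control array was the lowest of the 4 for 5 of the 9 genes, Dusp1, Dusp2, Dusp4, Dusp10 and Zfp36, against 21.3% of all genes. The LXR-DKO LPS array was the highest for 6 of the 9, Dusp2, Dusp5, Dusp10, Dusp16, Zfp36 and Zfp36l1, against 28.0% of all genes. For Dusp10 and Dusp16 the WT LPS array was instead above it after scaling to the 75th percentile. Both counts and their shares were made on the deposited scale only and after the values were seen. Since the LXR-DKO control array enters both the LXR-DKO response and the genotype difference without LPS, these values are not independent of each other.

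**Figure D4:**
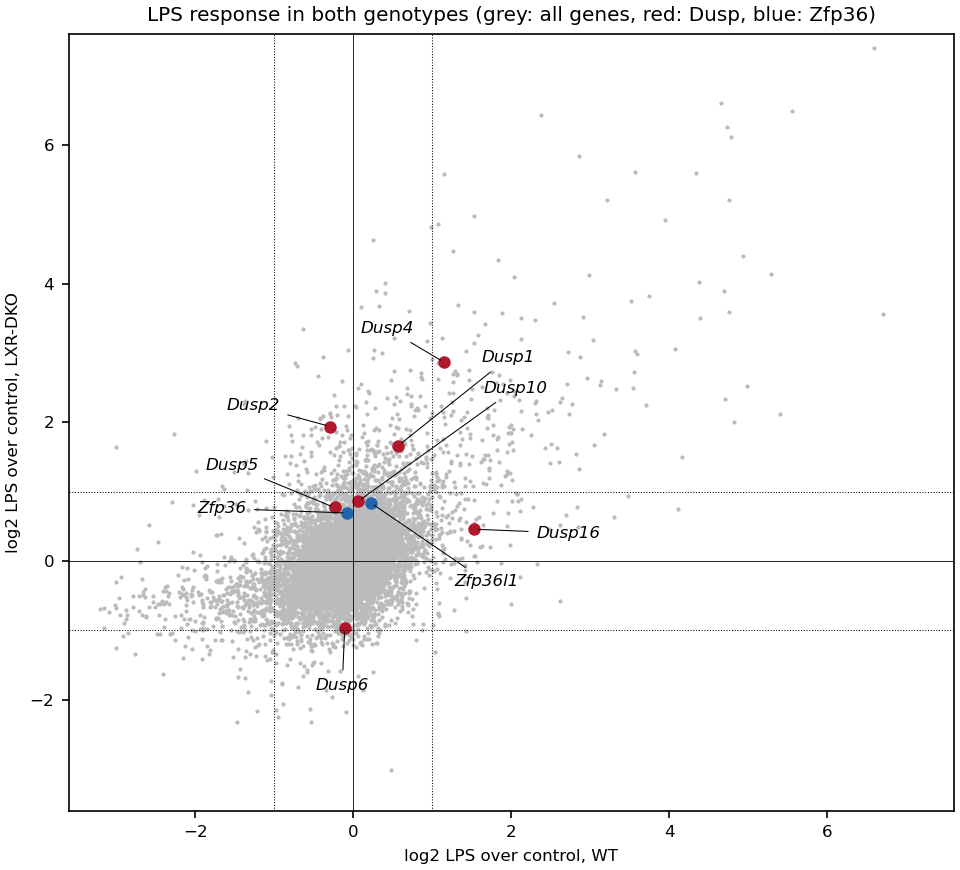
log2 ratio of LPS over control in LXR-DKO (y axis) against WT (x axis) for the 10764 genes measured in both (grey), with the 7 Dusp genes in red and the 2 Zfp36 genes in blue; dotted lines mark a log2 ratio of 1 and -1. Dusp4 is past 1 on both axes, Dusp1 and Dusp2 on the y axis alone and Dusp16 on the x axis alone; the Dusp4 y value is a limit.

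The other genes of the pathway were described with lists. Their counts are to be read beside the shares of all genes past 2-fold given above for each comparison. Of the other phosphatases, 11 were on the array and 7 were measured for the LPS response in LXR-DKO. There Dusp14 alone was past 2-fold, at a log2 ratio of at least 2.43, and the list's median was -0.27. Dusp14 was also the only one past 2-fold in WT, at a limit of 1.21, with signals of 155.6 in LXR-DKO LPS, 15.6 in LXR-DKO control, 67.0 in WT LPS and 10.5 in WT control cells. Between the genotypes, 2 of 8 measured genes of this list were past 2-fold lower in LXR-DKO, both without and with LPS. Past 2-fold higher were 0 of 8 without LPS and 1 of 8 with LPS, Dusp14 at 1.22. Dusp3, which encodes the small phosphatase VHR, was lower in LXR-DKO at -1.20 without LPS and -1.43 with LPS. Dusp18 was lower at a limit of -2.17 without LPS and -1.92 with LPS. Among the Sprouty and Spred inhibitors of the ERK pathway, 0 of 6 measured genes passed 2-fold with LPS in LXR-DKO and 0 of 5 in WT. Without LPS, Spry1 and Spry2 had limits of -1.88 and -1.97 for LXR-DKO against WT, and they were 2 of the 5 measured, with 0 past 2-fold in the other direction.

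Of 27 measured genes of the MAP kinase cascade, 1 passed 2-fold upwards and 1 downwards in LXR-DKO after LPS, and 0 of 25 did so in WT. The one higher was Map3k8, which encodes TPL2, the kinase that activates the ERK branch downstream of LPS, at 1.38 in LXR-DKO and 0.55 in WT. The one lower was Mapk13, a p38 isoform, at -1.19 in LXR-DKO and -0.85 in WT. Against WT, 5 of 26 cascade genes passed 2-fold upwards in LXR-DKO without LPS and 8 of 27 with LPS, and 0 passed it downwards in either, beside 12.7% and 17.8% of all genes upwards. Without LPS the leading ones were Mapk7, which encodes ERK5, at 2.14, Map2k6, which encodes a p38 activator, at a limit of 1.82, Mapk13 at 1.73 and the scaffold gene Ksr1 at 1.58. With LPS the NF-kappaB-inducing kinase gene Map3k14 led at 2.47. Of 7 effector kinases, 1 passed 2-fold upwards in LXR-DKO without LPS and 3 with LPS, led by Rps6ka5, which encodes MSK1, at 1.02 and a limit of 2.80. With LPS in WT, Rps6ka5 was also the 1 of the 7 past 2-fold lower, at a limit of -1.85, while 0 of 7 passed 2-fold in LXR-DKO. Mapkapk2, which encodes MK2, was not among them at 0.47 and 0.030, and its LPS ratio was 0.54 in LXR-DKO and 0.98 in WT.

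On the mRNA-decay side, Zc3h12a, which encodes the endonuclease Regnase-1, was higher with LPS at 1.32 in LXR-DKO and 1.72 in WT, and its relative Zc3h12c at 1.75 in LXR-DKO and 1.82 in WT. Of 14 other decay and AU-rich element binding factors, 2 passed 2-fold upwards in LXR-DKO and 3 in WT, and 0 downwards. Zfp36l2, the third ZFP36 family member measured, had signals of 2251.4 in LXR-DKO LPS, 3318.0 in LXR-DKO control, 2792.6 in WT LPS and 3439.0 in WT control cells. Its genotype ratios of -0.05 and -0.31 were smaller than the spread between probe sets, in contrast to those of Zfp36l1. Hnrnpd, which encodes the AU-rich element binding protein AUF1, was higher in LXR-DKO at 1.53 without LPS and 1.61 with LPS. Zc3h12c was lower in LXR-DKO at -1.58 without LPS and -1.65 with LPS, and each of these genes was the 1 of 14 past 2-fold in its direction. Of 20 genes of the CCR4-NOT and decay machinery, 0 passed 2-fold with LPS in either genotype, and against WT 3 were higher in LXR-DKO before LPS and 7 after it, with 0 lower, against 12.7% and 17.8% of all genes.

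Transcripts known to be bound by ZFP36 had a median log2 LPS ratio of 3.51 in LXR-DKO. There 13 of 16 passed 2-fold upwards, against 6.23% of all genes. In WT the median was 1.76 and 8 of 13 passed, against 2.93% of all genes. The 2 sets differ, since Il10, Il23a and Csf2 reached the floor on the LXR-DKO LPS array alone. Those genes were therefore measured in LXR-DKO only and could only be higher there. Most genes of this list encode inflammatory cytokines and chemokines, so its LPS medians cannot be read as a trait of ZFP36 binding, which was not tested. Without LPS, 7 of 13 of the ZFP36-bound transcripts passed 2-fold downwards in LXR-DKO and 1 upwards, against 9.28% and 12.7% of all genes. Their median was -1.54. Tnf, the best known ZFP36 target, had signals of 475.2 in LXR-DKO LPS, 122.5 in LXR-DKO control, 1208.6 in WT LPS and 355.8 in WT control cells. The chemokine genes Ccl2 and Ccl3 stood at -4.06 and -3.81 without LPS. With LPS, Il12b, a subunit gene of interleukin 12, was at 4.06 for LXR-DKO against WT and Plaur, the urokinase receptor gene, at -1.85. Of the ERK-induced early genes, 5 of 13 passed 2-fold downwards in LXR-DKO without LPS and 1 upwards, against the same 9.28% and 12.7%. Fos stood at -4.58 and Atf3 at -2.99, while the ETS factor gene Etv5 was at 2.07. Of the glucocorticoid and cyclic AMP inducible genes, 4 of 10 passed 2-fold upwards after LPS in LXR-DKO and 0 of 8 in WT. The shares of all genes were 6.23% and 2.93%. Nr4a2 and Il10 reached the floor on the LXR-DKO LPS array alone, so they were measured in LXR-DKO only and could only be higher there. Nr4a2 led at a limit of 3.57, while Tsc22d3, a classical glucocorticoid target, was at -0.64 in LXR-DKO and -0.73 in WT.

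**Figure D5:**
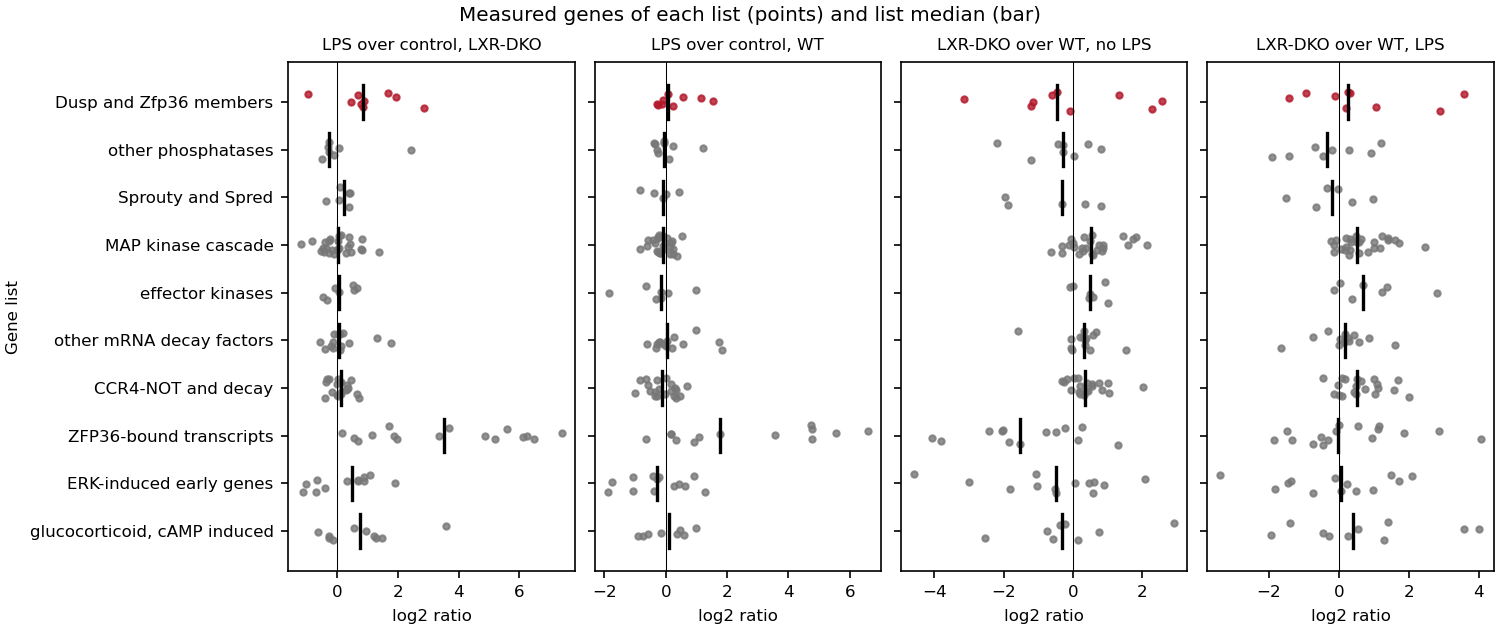
log2 ratio (x axis) of each measured gene (points) and the median (black bar) of the 9 members and of 9 other gene lists (rows) in 4 comparisons (panels); the vertical offset of points carries no value. The members' points lie on both sides of 0 in the genotype panels. The ZFP36-bound transcripts, a list made up mostly of cytokine and chemokine genes, have the highest medians with LPS, 3.51 over 16 measured genes in LXR-DKO and 1.76 over 13 in WT.

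Genes with the most similar pattern were sought by the distance between the 4 log2 signals, each centred on its own mean, among 9350 other named genes that reached the floor on each array. Zfp36l1 was closest to Jak3, which encodes a cytokine receptor kinase, at a distance of 0.32, then to Gpr18 at 0.33 and Htr7 at 0.36, and 7 genes lay within 0.5. Dusp5 was closest to Jdp2, which encodes a repressor of AP-1, at 0.22, then to Adgrg6 and Zeb1, and 9 genes lay within 0.5. Jdp2 had signals of 1196.1 in LXR-DKO LPS, 723.1 in LXR-DKO control, 102.6 in WT LPS and 142.7 in WT control cells. Dusp1 was closest to Etfbkmt at 0.16, Bgn and Mdm2, the last encoding the ubiquitin ligase of p53, and 33 genes lay within 0.5. Dusp16 was closest to Tmem119 at 0.26, Irf9 and Nfkbie, which encodes an inhibitor of NF-kappaB, with 19 genes within 0.5. Dusp2 was closest to Tmc8 at 0.30, Foxn3 and Hmgn3. Dusp6, Dusp10 and Zfp36 had the smallest ranges among the members, 2.08-fold, 1.82-fold and 1.62-fold from the lowest to the highest array. They had 339, 695 and 1251 genes within 0.5, led by Stard3nl, Ccdc138 and Snhg12. With 4 arrays these distances are descriptions, and Dusp4 was left out because 1 of its arrays was below the floor.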

How the data were processed

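Per the labels, column-purified total RNA of 4 cultures was made into biotinylated cRNA with an amplification kit and hybridised to 1 array each. The deposited numbers are linear array intensity values computed with MAS5 per the submitters' processing notes, with version and settings not given in the sources used here and no detection calls. Of 45101 probe sets, 64 controls were left out, and 34945 had 1 gene symbol in the platform annotation, 932 several and 9160 none listed here. Gene numbers matched the RefSeq table of GRCm38.p6 for 34741, which changed 0 symbols. Background noise and cross-hybridisation make ratios of dim probe sets uncertain, so a floor at the pooled median was used. It makes a ratio smaller in size where a signal lies below it.

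Ratios were computed in Python 3.11.15 with pandas 2.3.3 and numpy 2.4.6, and a 2-fold ratio, a log2 ratio of 1, was the threshold. Counting was tested on simulated data. Members and gene lists were chosen with earlier results of these data known. The named genes are the 9 members, the 3 nearest patterns of each, and up to 4 genes of each list by size of ratio with any needed to show both directions. Tnf, Mapkapk2, Zfp36l2, Tsc22d3, Zbtb46, C1qb and Cd68 were added after their values were seen. The 8 alternatives concerned scaling, the floor and the choice of probe sets.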

Additional observations from a re-analysis of the deposited data

Results flagged for a closer look

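Dusp2, Dusp5 and Zfp36 had LPS responses of opposite sign in the 2 genotypes, positive in LXR-DKO and negative in WT. The difference of the log2 responses was 2.23 for Dusp2, 1.01 for Dusp5 and 0.77 for Zfp36, and with 1 array per group it was not tested. Of the 10764 genes measured in both genotypes, 35.1% had responses of opposite sign, against 33.3% of the 9 members. The WT responses were small, at -0.29, -0.24 and -0.08, and that of Zfp36 was above 0 after scaling to the 75th percentile.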

How the results depend on the processing

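Each result was recomputed under 8 alternatives. Of 340 values of single genes, 333 moved by less than the spread between probe sets, 6 moved by more and 1 both moved by more and changed sign. The 333 include the sign changes within that spread given above for Dusp1, Dusp6, Dusp10, Dusp16 and Zfp36. That one was the difference of the responses for Dusp4, at least -0.90 with the floor at the 75th percentile, 177.4, which lies above its LXR-DKO control signal. It is a weaker limit and does not contradict the limit of 1.72. With that floor, 1 member passed 2-fold upwards with LPS in LXR-DKO and 1 was lower in LXR-DKO over WT without LPS, the median for the LPS response in WT was 0.40, and the difference of the responses had 1 member past 2-fold higher and a median of -0.12, over the 6 or 7 members still measured and with Dusp4 at its limit. After scaling to the same 75th percentile, 2 members were at least 2-fold lower in LXR-DKO over WT with LPS, where the median was -0.03, and 2 had a difference of the responses past 2-fold higher. Over genes that reached the floor on every array, a smaller set than all measured genes, the median of LXR-DKO over WT was -0.17 with LPS and -0.15 without LPS after that scaling, against 0.13 and 0.043 as deposited, and that of the WT response was 0.076 against -0.06. After centring on the median ratio, 2 members were likewise lower in LXR-DKO over WT with LPS. After quantile normalization, 1 was at least 2-fold lower with LPS in LXR-DKO and 0 had a difference past 2-fold lower. With only probe sets without a suffix, which leaves out Zfp36 and leaves Dusp16 unmeasured in WT, 1 member was past 2-fold higher with LPS in WT and 0 had a difference past 2-fold lower. The other 107 of 120 counts and medians over the members moved by no more than the spread between probe sets or, for counts, 1.5 times, which leaves in changes of 1 gene. Among these, the count past 2-fold higher in LXR-DKO over WT with LPS was 2 in place of 3 under 5 alternatives, including all 3 scalings. The difference of the responses had 3 genes past 2-fold higher in place of 4 under 3 alternatives. The genotype ratios of Dusp5 and Zfp36l1 and that of Dusp4 with LPS stayed past 2-fold under every alternative, and that of Dusp4 without LPS under 7 of 8, with only a limit of -0.53 under the highest floor. No paired analysis was possible because each group has 1 array. Dim signals limit Dusp2 and Dusp10.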
